A study of Mus musculus with 6 samples.

Results

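Ace, Mas1, Edn1, Apln and Flt1 encode an enzyme, peptide precursors and receptors that act on blood vessels, and they are 5 of 617 genes listed for the right ventricle (RV) of neonatal mice after pulmonary artery banding (PAB). PAB narrows the pulmonary artery with a suture tied around it, so that the RV ejects against a raised pressure. Wild-type C57/BL6J pups had PAB or a sham operation without the band on postnatal day 1, and RV tissue was taken on postnatal day 7 for 3 sham and 3 PAB libraries of total RNA. Pups of either sex were operated on according to the methods, and how many pups went into each library is not given in the sources used here, so the spread between libraries may be partly technical. The 5 genes were chosen by name with their difference between PAB and sham already known. The listed genes are also a selection of genes that differed between the same 6 libraries. Differences between the groups are therefore given as a description with their error, and no p-value is given.

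Angiotensin II narrows vessels and is made from angiotensin I by the angiotensin-converting enzyme, the product of Ace, which also breaks down bradykinin. The Mas receptor, encoded by Mas1, responds to angiotensin-(1-7), which opposes many effects of angiotensin II. Endothelin 1, from Edn1, is a strong vasoconstrictor made mainly by endothelial cells. Apelin, from Apln, relaxes vessels, raises the force of the heartbeat and marks sprouting endothelium, and Flt1 encodes VEGF receptor 1, which binds VEGF-A tightly and limits its signal at VEGF receptor 2.

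The deposited values are reads per gene divided by a size factor for the library, and they are called normalized reads here. The size factors lay between 0.939 and 1.07, so the 6 libraries were close in relative depth, while their total depth is unknown. PAB and sham differed in both directions within this group of genes. Ace, Edn1 and Flt1 were higher in PAB, by 3.64-fold, 2.24-fold and 2.12-fold between group means, and Mas1 and Apln were lower, by 7.96-fold and 2.09-fold. In 5 of the 5 genes the PAB and sham values did not overlap. This was so for 97.1% of the 617 listed genes, 44.6% with all PAB libraries above sham and 52.5% with all PAB libraries below, and the listing itself rests on this contrast, so nothing is read from the count. Tissue was sequenced in bulk, so more or fewer cells of a type and more or less RNA per cell cannot be told apart.

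**Figure D1:**
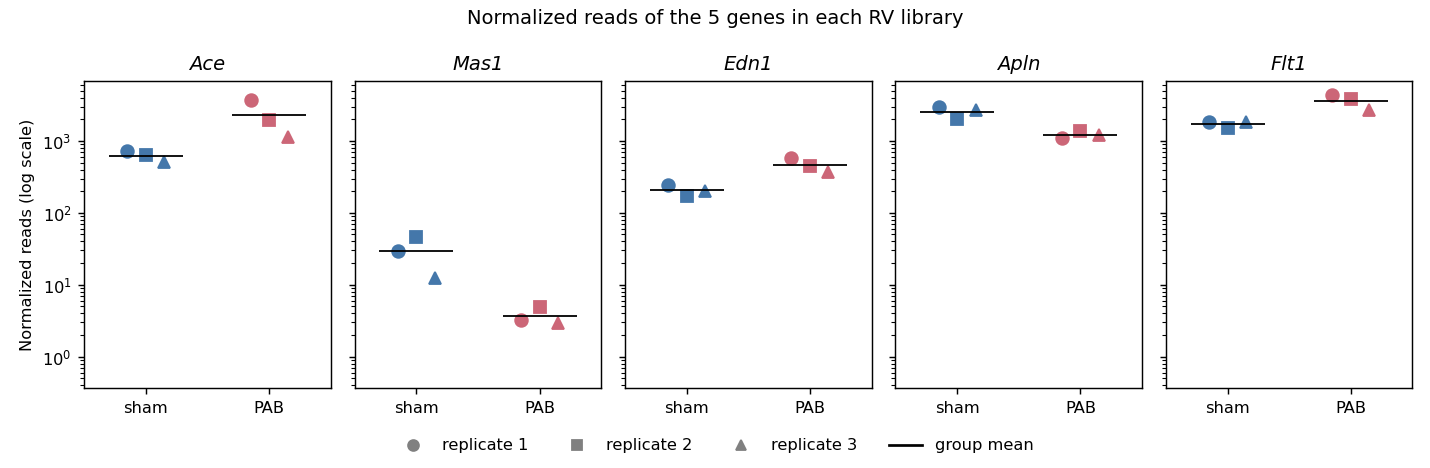
Normalized reads on a log axis for each gene, with 3 sham libraries in blue, 3 PAB libraries in red, a symbol for each replicate number and a line at the group mean. PAB lay above sham for Ace, Edn1 and Flt1 and below sham for Mas1 and Apln, and the Mas1 values in PAB were all under 5 normalized reads.

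Ace spans bases 105967945 to 105989964 of chromosome 11 (GRCm38, plus strand), with 25 merged exons and 5287 exonic bases. Its normalized reads were 727.3, 636.9 and 510.7 in sham replicates 1, 2 and 3. In PAB replicates 1, 2 and 3 they were 3746, 1970 and 1119. The lowest PAB library was above the highest sham library, and replicate 1 had 3.35 times the level of replicate 3 within the PAB group. Group means were 625.0 ± 109 (SD, n = 3) in sham and 2278 ± 1340 (SD, n = 3) in PAB. On the log2(normalized reads + 1) scale the difference was 1.71 with a standard error of 0.38 and a 95% interval from 0.85 to 2.56 (limma). Without PAB replicate 1 it was 1.26, and the ratio of the group means was then 2.47. Exons of the antisense gene Gm11651 overlap 295 bases, or 5.58%, of the exonic bases of Ace, and whether reads were counted by strand is not given in the sources used here.

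Ace has an outer start site that gives the somatic enzyme, with its paired catalytic domains, and an inner start site within the gene that is known for the short testis form. RefSeq windows for both starts were read, and the outer one is shown because it held 5 motif matches and the inner one held none. It runs from 250 bases before the start to 30 bases from it at chr11:105967698-105967977 on the plus strand of GRCm38.p6, and capitals mark 4 matches of the GC box GGGCGG and 1 match of the TATA box TATAAA, the latter on the opposite strand at position -31.
Ace outer start: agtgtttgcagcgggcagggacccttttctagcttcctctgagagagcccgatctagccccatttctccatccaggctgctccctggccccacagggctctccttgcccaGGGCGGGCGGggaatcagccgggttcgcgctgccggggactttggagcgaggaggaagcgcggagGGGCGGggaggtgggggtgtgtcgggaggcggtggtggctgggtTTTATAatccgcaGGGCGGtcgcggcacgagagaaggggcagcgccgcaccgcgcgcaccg
The inner window, at chr11:105974939-105975218, held no match to any of the 8 motifs searched. The table gives a total per gene, so the reads cannot be divided between the starts.

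Mas1 lies on chromosome 17 from 12841079 to 12868143 on the minus strand, with 10 merged exons and 2620 exonic bases. It had 29.3, 46.8 and 12.6 normalized reads in sham replicates 1, 2 and 3. In PAB replicates 1, 2 and 3 it had 3.20, 4.96 and 2.98. Every PAB library was below every sham library, but sham replicates also differed 3.72-fold among themselves. Group means were 29.6 ± 17.1 (SD, n = 3) in sham and 3.71 ± 1.09 (SD, n = 3) in PAB, the lowest level of the 5 genes in either group. The difference was -2.54 on the log2(normalized reads + 1) scale, with a standard error of 0.59 and a 95% interval from -3.85 to -1.23 (limma). This scale understates the change of so low a gene.

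The depth behind Mas1 was small. Read numbers were inferred from the step of each library, the normalized value that 1 read stands for. A separate automated search for the step found whole reads in 1 of the 6 libraries only, so read numbers and their intervals depend on the steps found here, of which 100% of the 617 values in each library were whole multiples. Divided by these steps, the values come to 3, 5 and 3 reads in PAB and to 31, 50 and 12 reads in sham, which makes 11 reads against 93. From these sums sham exceeded PAB 8.11-fold, with an exact 95% interval from 4.33 to 16.8 that covers counting error only. PAB replicates 1 and 3 were at the floor of 3 counts, so their difference from replicate 2 was not detectable at this depth. No exonic base of Mas1 is shared with an annotated exon of another gene, although the antisense gene Airn and the miRNA gene Gm24085 lie across or within its span. Overlap with parts of Airn outside its annotated exons was not looked at.

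The Mas1 window is printed because 3 matches of the M-CAT motif CATTCC, the site of TEAD factors, lie in it at positions -72, -21 and -9, in capitals, the first of them on the opposite strand. It is chr17:12868114-12868393 on the minus strand.
Mas1: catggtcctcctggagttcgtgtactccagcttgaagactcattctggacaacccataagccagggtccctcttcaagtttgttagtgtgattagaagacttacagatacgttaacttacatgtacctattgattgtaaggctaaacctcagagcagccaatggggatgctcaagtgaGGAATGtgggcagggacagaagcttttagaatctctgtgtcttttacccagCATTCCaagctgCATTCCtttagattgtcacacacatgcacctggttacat
Of 32851 RefSeq windows of the same length, 13.9% held at least 1 match and 0.12% held at least 3, and 14.4% of the windows of listed genes held at least 1. The count of 3 was compared after the window was seen, and a match describes letters, not binding.

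The ratio of Ace to Mas1 was higher in each PAB library than in each sham library. This follows from the values above, as Ace was higher and Mas1 lower in every PAB library, and is no separate result. With a pseudocount of 1 added to the normalized reads and the lengths of the exons then taken into account, the log2 ratio of Ace to Mas1 was 3.57, 2.73 and 4.22 in sham replicates 1, 2 and 3. It was 8.79, 7.36 and 7.12 in PAB replicates 1, 2 and 3, without overlap with sham. The mean log2 ratio was 3.51 ± 0.75 (SD, n = 3) in sham. In PAB it was 7.76 ± 0.90 (SD, n = 3), so the groups differed by 4.25 on the log2 scale. Without a pseudocount, a choice made after the data were seen, the difference was 4.55. Both values rest on the 11 reads of Mas1 in PAB.

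Edn1 lies on chromosome 13 from 42301476 to 42307990 on the plus strand, with 5 merged exons and 2139 exonic bases. It had 242.1, 173.0 and 203.5 normalized reads in sham replicates 1, 2 and 3. In PAB replicates 1, 2 and 3 it had 575.1, 442.3 and 367.6. The groups were apart, with a lowest PAB value 1.52 times the highest sham value. Group means were 206.2 ± 34.6 (SD, n = 3) and 461.7 ± 105 (SD, n = 3). The log2 difference was 1.15 with a standard error of 0.26 and a 95% interval from 0.57 to 1.72 (limma). Exons of an antisense gene, Gm47118, overlap 35 of the exonic bases, or 1.64%.

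The window around the annotated Edn1 start, chr13:42301226-42301505 on the plus strand, is shown because it was the only window of the 6 with the core that hypoxia-inducible factors bind, ACGTG. It stands at position 22 on the opposite strand, after the GATA motif AGATAA at position 9, also on the opposite strand, and 1 M-CAT match lies at position -207. All 3 are in capitals.
Edn1: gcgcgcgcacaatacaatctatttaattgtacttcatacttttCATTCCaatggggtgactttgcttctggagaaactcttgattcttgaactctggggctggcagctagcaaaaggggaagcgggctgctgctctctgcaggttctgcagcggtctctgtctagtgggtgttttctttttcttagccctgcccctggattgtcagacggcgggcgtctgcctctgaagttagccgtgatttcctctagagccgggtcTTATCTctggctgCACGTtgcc
The core ACGTG was in 18.5% of all windows and in 23.4% of the windows of listed genes. AGATAA was in 10.7% and 6.4%, and 1.56% of all windows held both, a combination also picked after the window was seen. The E-box CACGTG contains the core and would be counted under both, but it was not in this window.

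Edn3, which encodes a second endothelin peptide, was the other gene of the endothelin list that the table holds. It had 1, 3 and 0 inferred reads in sham replicates 1, 2 and 3 and 64, 43 and 17 in PAB replicates 1, 2 and 3. Every sham library was at or below the floor of 3 counts and every PAB library was above it. From the sums of 4 and 124 reads PAB exceeded sham 32.3-fold, with an exact 95% interval from 12.3 to 120.5 for counting error only. These reads are inferred in the same way as those of Mas1, with the same doubt. Edn1 was more abundant than Edn3 per kilobase in both groups, at 96.4 against 0.304 normalized reads per kilobase in sham and 215.8 against 10.3 in PAB. The endothelin receptors and converting enzymes, also on that list of 8 symbols, were not analysed here.

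Apln lies on the X chromosome from 48025146 to 48034853 on the minus strand, with 3 merged exons and 3149 exonic bases and no other gene in its span. It had 2931, 2024 and 2704 normalized reads in sham replicates 1, 2 and 3. In PAB replicates 1, 2 and 3 it had 1101, 1370 and 1193. PAB libraries lay close together, with a coefficient of variation of 11.2%, the lowest of the 5 genes in that group, and all were below sham. Group means were 2553 ± 472 (SD, n = 3) and 1221 ± 136 (SD, n = 3). The log2 difference was -1.05 with a standard error of 0.24 and a 95% interval from -1.58 to -0.52 (limma).

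Apln was the member most exposed to the scaling of the libraries. With median-ratio scaling computed from the listed genes, PAB moved up by 0.59 log2 units against sham. The difference of Apln was then -0.46 and the groups overlapped, with 1334 to 1755 in PAB and 1562 to 2387 in sham. That scaling takes most listed genes as unchanged, which does not hold for genes listed for a change. The Apln window, chrX:48034824-48035103 on the minus strand, is given as that of the higher-expressed of the 2 genes that were lower, and its capitals mark a single GC box.
Apln: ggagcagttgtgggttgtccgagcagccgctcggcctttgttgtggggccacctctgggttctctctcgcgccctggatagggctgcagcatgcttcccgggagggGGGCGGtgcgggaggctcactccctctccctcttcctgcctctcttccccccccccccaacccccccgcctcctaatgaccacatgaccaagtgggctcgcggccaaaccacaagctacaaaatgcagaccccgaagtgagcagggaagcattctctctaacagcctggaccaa
The apelin receptor and Apela, the other 2 symbols of the apelin list, were not analysed here.

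Flt1 lies on chromosome 5 from 147561604 to 147726011 on the minus strand, with 33 merged exons and 13504 exonic bases, the longest of the 5 genes. It had 1820, 1494 and 1834 normalized reads in sham replicates 1, 2 and 3. In PAB replicates 1, 2 and 3 it had 4361, 3836 and 2698. The groups did not overlap, and PAB replicate 3 was nearest to sham. Group means were 1716 ± 192 (SD, n = 3) and 3632 ± 850 (SD, n = 3). The log2 difference was 1.06 with a standard error of 0.25 and a 95% interval from 0.50 to 1.62 (limma). Flt1 gives both a membrane receptor and a soluble form that traps VEGF, and values per gene do not part them.

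The Flt1 window is chr5:147725982-147726261 on the minus strand. It is shown for the cAMP-response element TGACGTCA at position -81, which 1.7% of all windows held, and for a TATA box at position -31 with 3 GC boxes on the opposite strand, all in capitals.
Flt1: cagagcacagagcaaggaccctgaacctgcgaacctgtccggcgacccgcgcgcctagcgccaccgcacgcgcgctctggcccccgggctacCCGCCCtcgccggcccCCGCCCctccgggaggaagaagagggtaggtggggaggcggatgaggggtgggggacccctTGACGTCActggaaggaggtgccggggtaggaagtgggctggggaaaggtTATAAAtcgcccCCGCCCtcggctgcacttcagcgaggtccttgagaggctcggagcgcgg
The Ace and Flt1 windows each held TATAAA and GGGCGG on either strand, as did 1.88% of all windows. This pair of motifs was picked after the windows were seen, so the share is a description only. Both TATA matches stood at position -31 but in opposite orientation, that of Ace on the opposite strand and that of Flt1 on the strand of the gene, and the GC boxes of the windows also lay on different strands. GGGCGG was in 34.7% of all windows and in 45.5% of the 547 windows of listed genes, and TATAAA was in 13.1% and 12.1%. No window of the 5 genes held the AP-1 motif TGANTCA or the E-box, found in 7.5% and 6.8% of all windows.

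**Figure D2:**
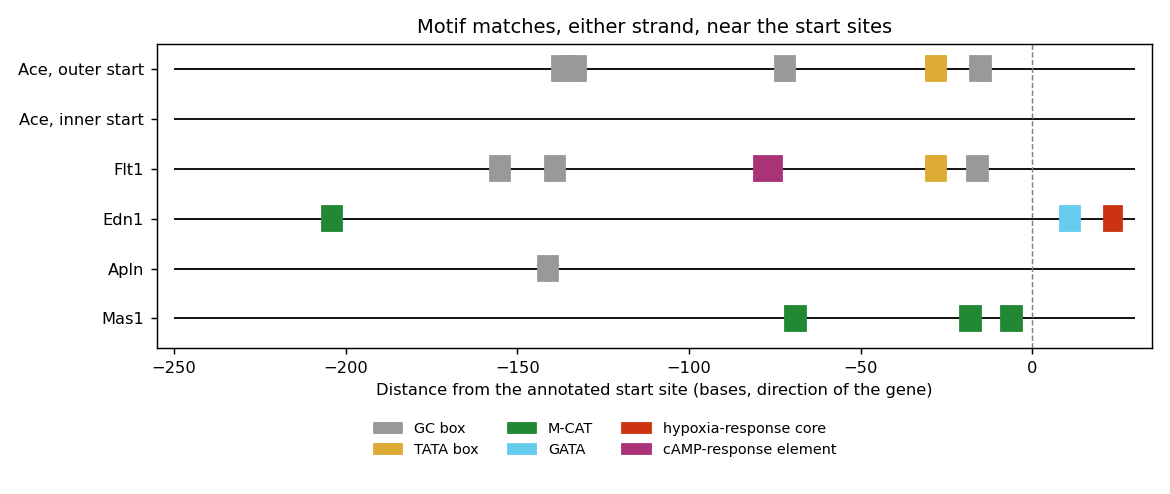
Matches of 6 motifs on either strand, drawn as boxes against the distance in bases from the annotated start site, from 250 bases before it to 30 bases from it. Ace (outer start) and Flt1 each have a TATA match at -31, on opposite strands, and several GC boxes, Mas1 has 3 M-CAT matches, and the hypoxia-response core appears in Edn1 alone.

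The plot of differences sets the 5 genes side by side. Mas1 had the largest difference and the widest interval, and the intervals of Edn1 and Flt1 covered nearly the same range. Among the 290 listed genes with a positive log2 difference Ace ranked 104, Edn1 219 and Flt1 247, and among the 327 with a negative one Mas1 ranked 37 and Apln 297. The medians over those listed genes were 1.45 and -1.45, so Ace and Mas1 lay beyond the median of their direction and the other 3 short of it. The smallest absolute log2 difference among all listed genes was 0.92, not far below those of Edn1, Flt1 and Apln.

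**Figure D3:**
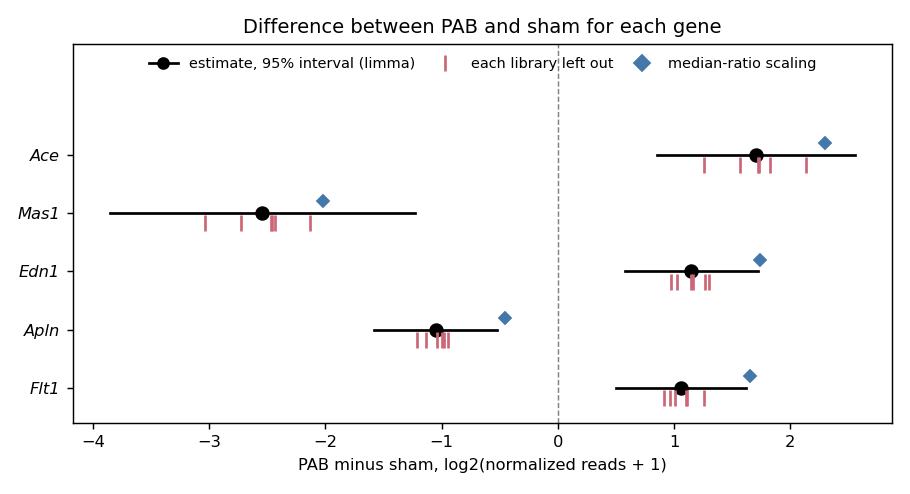
PAB minus sham on the log2(normalized reads + 1) scale, with the limma estimate and 95% interval in black, the estimate with each library left out as red ticks and the estimate under median-ratio scaling as blue diamonds. Each gene kept its sign in all of these, from 1.26 to 2.13 for Ace and from -3.04 to -2.13 for Mas1 with a library left out, and Apln came nearest to 0 with median-ratio scaling, at -0.46.

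Levels of different genes can be compared only per length. In sham, Apln stood first at 810.7 ± 150 (SD, n = 3) normalized reads per kilobase of exon. Flt1 at 127.1 ± 14.2, Ace at 118.2 ± 20.6 and Edn1 at 96.4 ± 16.2 (SD, n = 3) followed, and their ranges overlapped. Mas1 was last at 11.3 ± 6.52 (SD, n = 3), below every library of the others. In PAB, the order of Ace and Apln was not settled. Ace had a mean of 430.9 ± 254 (SD, n = 3), with a range from 211.6 to 708.5 that held all 3 Apln values. Apln was above Ace in PAB replicates 2 and 3 and below it in replicate 1, and without replicate 1, left out after the values were seen, the means were 292.1 for Ace and 406.9 for Apln. Apln had a mean of 387.8 ± 43.3 (SD, n = 3), above every library of Flt1 at 268.9 ± 63.0 and of Edn1 at 215.8 ± 49.1 (SD, n = 3), whose ranges overlapped each other. Mas1 stayed last at 1.42 ± 0.41 (SD, n = 3). Lengths are those of all annotated exons, so a gene of which a shorter form is used appears too low.

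Edn1 and Flt1 had overlapping ratios to each other in the groups. The log2 ratio of their normalized reads was -3.06 ± 0.14 (SD, n = 3) in sham and -2.97 ± 0.13 (SD, n = 3) in PAB. For Ace and Flt1 the groups also overlapped, but PAB libraries were spread more widely. Their log2 ratio ran from -1.27 in PAB replicate 3 to -0.22 in PAB replicate 1, against -1.85 to -1.23 in sham. The coefficient of variation between PAB libraries was 58.8% for Ace, against 22.8% for Edn1 and 23.4% for Flt1. The log2 ratio of Edn1 to Apln was -3.63 ± 0.10 (SD, n = 3) in sham. It was -1.42 ± 0.42 (SD, n = 3) in PAB, which was 2.20 higher. These are ratios of transcripts, and the peptides were not measured.

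PAB replicate 1 was the most extreme library for Ace, Edn1, Flt1 and Apln, and replicate 3 was the least extreme for Ace, Edn1 and Flt1. This is not particular to these genes. Among the 275 listed genes with every PAB value above sham, replicate 1 was the highest in 86.5%, and among the 324 with every PAB value below, it was the lowest in 58.3%.

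Of 96 further symbols in 10 lists of vasoactive and angiogenic pathways, 9 were in the table, 7 with every PAB value above sham and 2 with every PAB value below, and a median log2 difference of 1.69. Of all 617 listed genes 44.6% were above and 52.5% below in this sense, and all were listed for a difference, so nothing is read from these counts. Genes not in the table were not analysed here. The natriuretic peptide precursors Nppa and Nppb, whose products relax vessels and raise salt excretion, had log2 differences of 5.60 and 2.43. Nts, which encodes neurotensin, had one of 1.97. Ddah1, which degrades an inhibitor of nitric oxide synthase, and Prkg1, the cGMP-dependent protein kinase, had differences of 1.42 and 1.66.

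The calcitonin-family accessory proteins parted in direction. Ramp3, a partner of the adrenomedullin receptor, went from 76.0 ± 17.8 to 263.4 ± 116 (SD, n = 3) normalized reads. Ramp1, a partner of the CGRP receptor, went from 582.3 ± 19.9 to 134.8 ± 72.2 (SD, n = 3). Angpt1, the angiopoietin that keeps endothelium quiescent, was the other gene that was lower, with 145.3 ± 24.0 in sham and 56.9 ± 14.7 (SD, n = 3) in PAB. No symbol of the kinin list of 8 was in the table, and Flt1 was the only gene in it of the VEGF list of 11.

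**Figure D4:**
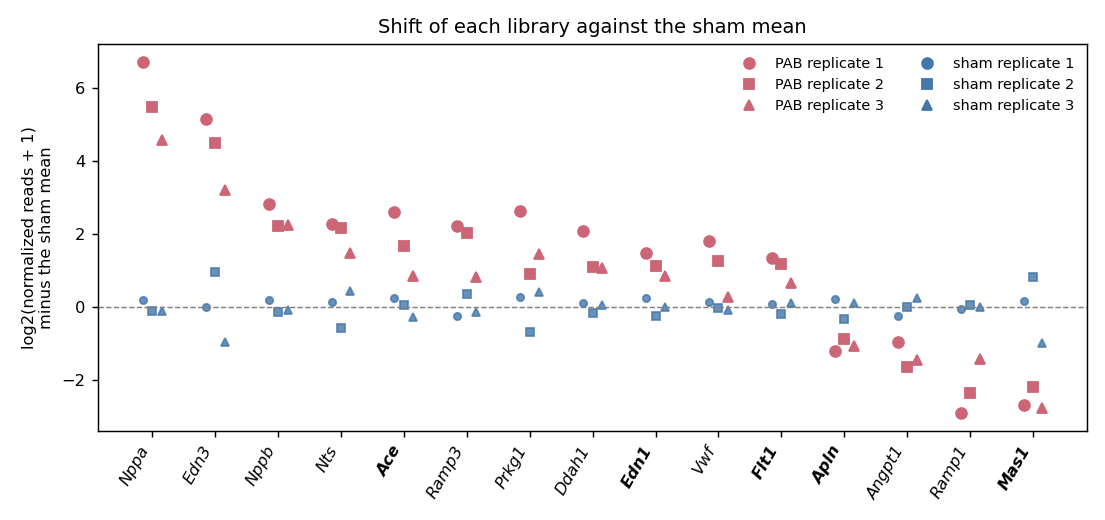
Shift of each library against the sham mean on the log2(normalized reads + 1) scale for the 5 genes (bold), the 9 other listed genes of the vasoactive and angiogenic lists and the endothelial marker Vwf, with sham in blue, PAB in red and a symbol for each replicate number. PAB values of Vwf ran from 0.26 in replicate 3 to 1.81 in replicate 1, and Ace, Edn1 and Flt1 showed the same order of replicates, as did several other genes.

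Ace, Edn1, Apln and Flt1 are expressed in endothelium, so markers of that cell type bear on them. Of 14 endothelial markers 1 was in the table. Vwf, the von Willebrand factor, had 1283 to 1488 normalized reads in sham and 1637 to 4792 in PAB, a log2 difference of 1.11. Within libraries, ratios to Vwf overlapped between the groups for Edn1 and Flt1 and did not for Ace and Apln, a comparison chosen after the values were seen. The part of endothelial cells in these results was not tested. Of 7 flow-responsive endothelial genes 3 were in the table, Edn1 among them, all with PAB above sham, as were 44.6% of all listed genes. Thbd, for thrombomodulin, had a log2 difference of 0.98 and Cyp1b1 one of 1.80. Of 12 genes of endothelial tip cells, the leading cells of a sprout, 4 were in the table. Kcne3, Unc5b and Igfbp3 had differences of 1.44, 1.16 and 2.30, while Apln was the only gene of the 4 that was lower.

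Edn1 and Flt1 are known targets of hypoxia-inducible factors, as is Apln. Of 23 hypoxia-response genes 5 were in the table, and in all 5 every PAB value was above sham, as in 44.6% of all listed genes. Nothing is read from the count, since the listing rests on this contrast. Their log2 differences were 3.42 for Car9, a carbonic anhydrase, 2.23 for the lactate exporter Slc16a3, 1.59 for the mitophagy receptor Bnip3 and 1.20 for the glucose transporter Slc2a1. The fifth, the secreted stanniocalcin gene Stc1, went from 72.8 ± 14.1 to 303.8 ± 107 (SD, n = 3) normalized reads. Apln moved against them. Whether oxygen had a part in any of these values was not tested.

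The tissue label could be checked on few markers. Of 10 cardiomyocyte markers Pln alone was in the table, with sham at 23450 ± 3120 and PAB at 10598 ± 1717 (SD, n = 3) normalized reads. Of the other lists, Dpt for fibroblasts and Dbh for nerve were lower in PAB, with log2 differences of -1.20 and -3.63, and Nppa stood for the atrial list. The lists for endothelial subtypes, mural, immune, red blood, epicardial and lung cells had no gene in the table.

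For each gene the 3 listed genes with the most similar profile were found by Pearson's r of log2(normalized reads + 1) over the 6 libraries. For Ace they were Adamtsl2 (r = 0.995), Snai1 (0.993) and Piezo1 (0.992), the last a channel opened by stretch. For Mas1 they included Nrtn (0.984) and Ddx60 (0.984). For Edn1 they were Scube2 (0.997), Cmklr1 (0.994) and Casq1 (0.992). For Apln they were Cd27 (0.994), Cntfr (0.983) and Tmem37 (0.983), and for Flt1 they were P3h2 (0.996), Stc1 (0.995) and Cyyr1 (0.993). Among the 5 genes the highest r was between Edn1 and Flt1, at 0.984, and Ace had 0.954 with Edn1 and 0.950 with Flt1. All listed genes were picked for a difference between the same groups of libraries, so high values of r follow in part from that choice.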

How the data were processed

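The 6 libraries came from mouse RV tissue, 3 after sham surgery and 3 after PAB. The labels give mouse as the organism and strain, while the extraction protocol names rat in 1 place, and the libraries were taken as mouse, the species of the gene identifiers. Groups and replicate numbers come from the sample titles. The authors' methods state that FPKM was calculated with featureCounts and that groups were compared with DESeq2, and the submitters' processing notes name HISAT2 2.0.5, featureCounts 1.5.0-p3 and the build mm10. The deposited values are a signal of another kind, reads per gene over a size factor, since low values (up to 50 steps of a library's smallest unit) were whole multiples of that unit in 100% of cases, at a tolerance of 0.1. Columns with the authors' fold changes and p-values were not used. Coordinates match GENCODE M21 (GRCm38) for the 5 genes.

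The design had planned a log-scale fit of normalized values, and this fit was kept. Values on the log2(value + 1) scale, with a minimum mean of 0.1, were fitted over all 617 genes by linear models with a trended empirical Bayes step and no covariates (limma 3.58.1, R 4.3.3), and the script was checked on simulated data. A separate automated search for the steps found whole reads in 1 of the 6 libraries, so no count test was run and read numbers given for Mas1 and Edn3 are inferred. With 3 libraries in a group, precision was low.

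The genes, lists and motifs were chosen with earlier results of these data known. The text names the 5 genes, the genes of 13 pathway lists and 11 marker lists that the table holds, and for each of the 5 genes the 3 most correlated genes, except 1 that is not reported here. Alternatives were a pseudocount of 0.1, no filter, a minimum mean of 1, scaling by median ratios, no trend in the variance, a replicate block and leaving out each library. Promoter windows came from RefSeq (GRCm38.p6), with all 5 genes matched, and 8 motifs were searched on both strands. Python 3.11.15, numpy 2.4.6, pandas 2.3.3, scipy 1.17.1 and matplotlib 3.10.9 were used.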

Additional observations from a re-analysis of the deposited data

How the results depend on the processing

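With median-ratio scaling the log2 difference went to 1.74 for Edn1, 1.65 for Flt1 and -0.46 for Apln, by construction of that scaling, which raises PAB against sham by 0.59. The groups then overlapped for Apln, and 4 of the 5 genes did not overlap. With this scaling 550 of the 617 listed genes did not overlap either, so nothing is read from the count. For Ace and Mas1 the values were 2.30 and -2.02, outside the ranges with a library left out, though each moved by less than the SD between libraries pooled over both groups. The move was above the SD of the sham group for Ace and of the PAB group for Mas1. No alternative reversed a sign. The filters removed no gene, as the lowest mean was 8.54. With each library left out, the difference lay between 1.26 and 2.13 for Ace, -3.04 and -2.13 for Mas1, 0.98 and 1.30 for Edn1, -1.21 and -0.94 for Apln, and 0.91 and 1.26 for Flt1. The ratio of Ace to Mas1 differed between the groups by 3.73 to 4.61 on the log2 scale, by 4.51 with a pseudocount of 0.1 and, as added after seeing the data, by 4.55 with none. The groups did not overlap in 599 to 615 of the 617 listed genes with a library left out.

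Sham and PAB libraries share replicate numbers, which nothing in the labels ties to a litter or a day. After centring each group, libraries with the same number correlated across genes at -0.06, -0.05 and -0.20, so a number gave no sign of pairing. With the replicate block the log2 differences were the same, 1.71 for Ace for example, with standard errors of 0.30 for Ace, 0.60 for Mas1, 0.27 for Edn1, 0.27 for Apln and 0.28 for Flt1.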

Other observations

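Edn1, Flt1, Ace and Apln were set against Vwf within each library. This comparison was chosen after the values were seen and rests on 1 marker that was itself listed for a difference. The log2 ratio of Edn1 to Vwf was -2.74 ± 0.18 (SD, n = 3) in sham and -2.70 ± 0.48 (SD, n = 3) in PAB, and that of Flt1 to Vwf was 0.32 ± 0.18 and 0.27 ± 0.43 (SD, n = 3), with overlapping groups in both. Ace went from -1.14 ± 0.16 to -0.54 ± 0.18 (SD, n = 3), with all PAB libraries above sham, while the ratio of Ace to Flt1 overlapped between the groups, so Ace is not shown to differ from Flt1. Apln went from 0.89 ± 0.25 to -1.28 ± 0.83 (SD, n = 3), with every PAB library below.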
